A study of Drosophila melanogaster with 36 samples.

Results

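The genes described are tobi and 7 of the maltase A genes (Mal-A1, Mal-A2, Mal-A3, Mal-A4, Mal-A6, Mal-A7 and Mal-A8) of Drosophila melanogaster. They were chosen by name: an array element, which is 1 printed DNA sequence, was taken if its current or older gene symbol was one of these. All 8 genes had 1 element each among 15732 elements on the array, and all 8 passed the filter that kept 14866 elements for testing, with a value on each of 36 arrays. The choice was made because strain differences of these genes were known, so those differences are given as a description and without p-values.

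Whole adult flies of 3 strains from a commercial supplier were compared by 2-colour hybridisation. The wild type was OregonR; the Antp73b strain is named for an allele of the homeotic gene Antennapedia, and the ap56f strain for an allele of apterous, a wing selector gene. Every ordered pair of strains, including a strain against itself, was hybridised on 4 arrays, which makes 9 groups, and poly(A)-selected RNA of 1 strain was labelled with Cy3 (channel 1) and that of the other with Cy5 (channel 2). The labels at hand state neither the sex nor the age in days of the flies, nor how many times RNA was extracted. Errors and p-values therefore cover the spread between arrays alone, and that spread may be technical. The same supplier is named for all strains, and the allele and the rest of that stock's genetic background cannot be told apart. In RNA of whole flies, fewer cells of a type and less RNA per cell cannot be told apart either.

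Alpha-glucosidases release glucose from maltose and other short sugars that remain when amylase has cut starch. In the fly they work mainly in the midgut, and the maltase A genes lie side by side on chromosome arm 2R. Mal-A1, Mal-A2 and Mal-A3 were first described as the larval visceral protein genes LvpH, LvpD and LvpL. The gene tobi (target of brain insulin), on arm 3R, encodes an alpha-glucosidase whose transcript is known to respond to dietary sugar and protein and to the insulin-like and glucagon-like hormones of the fly. Mal-A5, which lies inside the cluster, was not analysed here.

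The deposited value of a spot is a signed fold ratio between the channels, written with 1 decimal, and the labels at hand do not say which channel has the stronger signal when it is positive. Values below are log2 ratios centred on the median of each array, coded as channel 1 over channel 2. If the ratio does run that way, a plus-side difference is a higher transcript share in the first-named strain; if it runs the other way, a lower one. The side is the same for every gene and array, so orders and sizes of differences hold in both cases. Every array held 31464 spots, of which 26362 to 30716 had a value, and over all elements the standard error (SE) of strain differences had a median of 0.058 on the log2 scale. The number of arrays limits the precision.

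tobi had by far the most extreme ratios of the 8 genes. With Antp73b in channel 1 and OregonR in channel 2 its log2 ratio was 2.68, 2.90, 2.96 and 3.02 on the 4 arrays. With the colours exchanged it was -2.72, -2.71, -2.63 and -2.61. The deposited signed folds behind these values ran from 5.8 to 8.7 in the first orientation and from -7.0 to -5.0 in the second, and neither orientation came near the range of the 12 self-hybridised arrays (-0.40 to 0.54, median 0.10). The fitted difference was 2.75 (SE 0.065), a 6.71-fold ratio.

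For ap56f against OregonR the log2 ratios of tobi were 1.38, 1.51, 1.67 and 1.94, and after exchange of the colours -1.86, -1.32, -1.23 and -1.23. These groups were also separate from each other and from the self-hybridised arrays, with a fitted difference of 1.55 (SE 0.065). Antp73b against ap56f gave 0.93, 1.20, 1.32 and 1.5, and -1.20, -1.17, -1 and -0.96 after exchange, with a fitted difference of 1.19 (SE 0.065). The order of the strains for tobi was therefore OregonR, ap56f and Antp73b, and the groups of the 2 orientations did not overlap for any neighbouring pair in that order. The difference of ap56f from OregonR was 56.5% (SE 2.1) of that of Antp73b from OregonR. By the size of the fitted difference tobi ranked 3 among 14866 elements in Antp73b against OregonR, 4 in ap56f against OregonR and 24 in Antp73b against ap56f. The plot of every array shows these values beside those of the maltases.

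**Figure D1:**
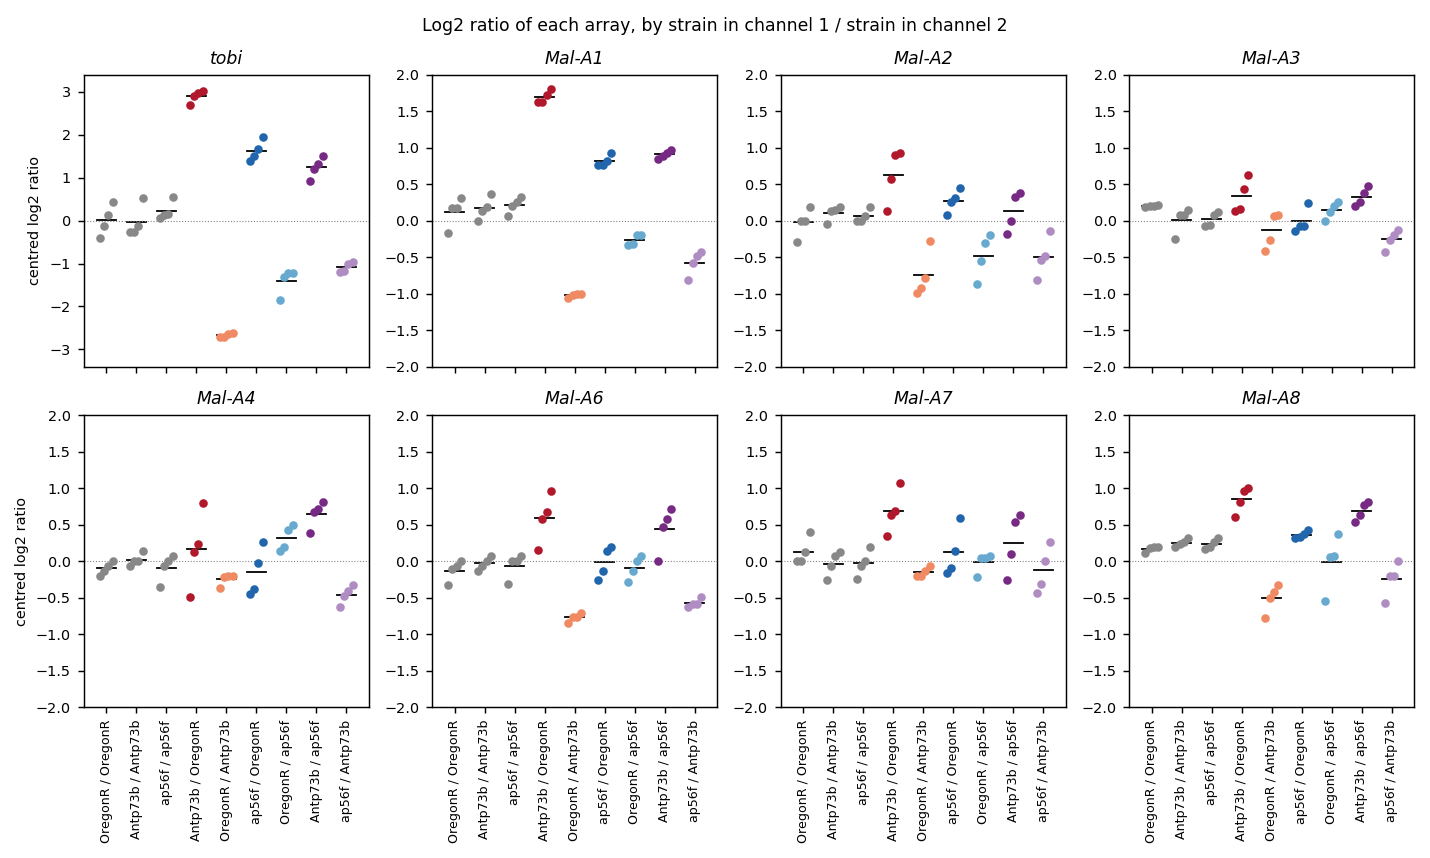
Centred log2 ratio (vertical axis) of each of the 36 arrays for the 8 genes, by the strain in channel 1 / the strain in channel 2. Points are arrays, 4 in each group, and horizontal bars are group means; the vertical scale of tobi is wider than that of the maltases. The 4 arrays of Antp73b / OregonR lie between 2.68 and 3.02 for tobi and between 1.62 and 1.80 for Mal-A1.

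Mal-A1 showed the same order of strains at a smaller size. Its log2 ratio with Antp73b in channel 1 and OregonR in channel 2 was 1.62, 1.63, 1.72 and 1.80, and with the colours exchanged -1.06, -1.02, -1 and -1. All 8 of these arrays lay outside the range of the self-hybridised arrays, which was -0.17 to 0.37. The fitted difference was 1.33 (SE 0.046), a 2.52-fold ratio, and Mal-A1 ranked 28 by size.

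In ap56f against OregonR the ratios of Mal-A1 were 0.76, 0.76, 0.81 and 0.92 in one orientation and -0.34, -0.32, -0.20 and -0.20 in the other, with a fitted difference of 0.56 (SE 0.046). In Antp73b against ap56f they were 0.84, 0.89, 0.93 and 0.96, and -0.82, -0.58, -0.49 and -0.43, with a fitted difference of 0.77 (SE 0.046). Neither pair of groups overlapped. The difference of ap56f from OregonR was 42.4% (SE 3.0) of that of Antp73b for Mal-A1. The unequal size of the 2 orientations went with a dye offset, a shift fitted as the same for all strains. Fitted over all arrays it was 0.23 (SE 0.027) for Mal-A1, and the mean of its self-hybridised arrays was 0.17.

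The other maltases differed less, and not all in the same order. In Antp73b against OregonR the difference was 0.69 (SE 0.067) for Mal-A2, 0.23 (SE 0.049) for Mal-A3, 0.25 (SE 0.065) for Mal-A4, 0.63 (SE 0.054) for Mal-A6, 0.36 (SE 0.070) for Mal-A7 and 0.67 (SE 0.052) for Mal-A8. Along the chromosome the sizes thus fell from Mal-A1 to Mal-A3 and Mal-A4 and were larger again at Mal-A6 and Mal-A8. Mal-A7, which lies between Mal-A6 and Mal-A8, was smaller than both at 0.36. Mal-A6 and Mal-A8 ranked 166 and 153 by size and Mal-A3 ranked 1644.

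The arrays behind these values were more scattered than those of tobi and Mal-A1. Mal-A8 gave 0.61, 0.81, 0.96 and 1 with Antp73b in channel 1 and -0.78, -0.51, -0.42 and -0.32 in channel 2. Mal-A6 gave 0.15, 0.58, 0.67 and 0.96 against -0.84, -0.76, -0.76 and -0.71. Both pairs of groups were separate, although the lowest Mal-A6 array (0.15) stood close to the highest self-hybridised array (0.07).

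Mal-A2 gave 0.13, 0.57, 0.90 and 0.92 in the first orientation and -0.99, -0.92, -0.79 and -0.28 in the second. Its groups were separate as well, but 1 array of each orientation (0.13 and -0.28) lay within the range of the self-hybridised arrays (-0.29 to 0.19). Mal-A7 gave 0.34, 0.63, 0.69 and 1.07 against -0.20, -0.20, -0.14 and -0.07, so its second orientation stayed inside the self-hybridised range of -0.26 to 0.40. The dye offset of Mal-A7 over all arrays was 0.09 (SE 0.040).

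For Mal-A3 and Mal-A4 the single arrays barely told Antp73b from OregonR. Mal-A3 gave 0.13, 0.16, 0.43 and 0.63, and -0.41, -0.26, 0.06 and 0.07 after exchange, a gap of 0.06 between the groups. The deposited values move in log2 steps of 0.14 next to a fold of 1, and the gap is smaller than that. It also rests on the centring of array 50 (deposited folds 1.1 and 1.2), which without centring stood above array 65 (1.2 and -1.0). Mal-A4 gave -0.49, 0.13, 0.24 and 0.80, and -0.37, -0.21, -0.20 and -0.20, and these groups overlapped. In this comparison the groups of the 2 orientations were separate on the plus side for 7 of the 8 genes, Mal-A3 included. The same held for 9.52% of all elements. On the minus side they were separate for 0 of the 8 genes and 7.21% of all elements. All 8 genes passed the threshold of a limma adjusted p of 0.05 on the plus side. Of all elements 22% passed it, 11.9% plus and 10.1% minus. The genes were chosen with their strain differences known. Nothing is therefore read from the counts or medians of the 8, here or in the other strain comparisons. Without the first 2 arrays of each group, Mal-A3 (0.19, SE 0.077), Mal-A4 (0.23, SE 0.11) and Mal-A7 (0.30, SE 0.11) no longer passed the threshold. The median over the 8 genes was 0.65, against 0.01 over all elements.

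**Figure D2:**
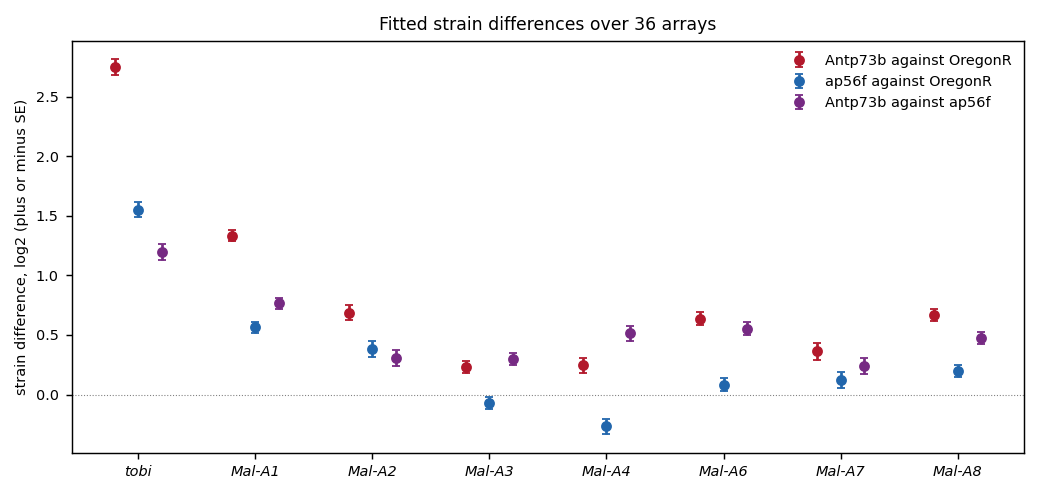
Fitted strain difference (vertical axis, log2) of the 8 genes in 3 comparisons over 36 arrays, with bars of 1 SE. tobi and the maltases are in order along the horizontal axis; in ap56f against OregonR the values run from -0.27 for Mal-A4 to 1.55 for tobi.

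In ap56f against OregonR the maltases divided. Mal-A2 stood on the plus side like tobi and Mal-A1, with 0.07, 0.26, 0.31 and 0.45 against -0.87, -0.56, -0.31 and -0.20 and a fitted difference of 0.38 (SE 0.067). Mal-A8 had a small difference of 0.19 (SE 0.052). Its 4 arrays with ap56f in channel 1 lay close together at 0.32, 0.33, 0.37 and 0.43, while those with OregonR in channel 1 were spread over -0.54, 0.06, 0.07 and 0.37, so that the groups overlapped. Mal-A6 (0.08, SE 0.054), Mal-A7 (0.12, SE 0.070) and Mal-A3 (-0.07, SE 0.049) did not pass the threshold.

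The arrays of these 3 genes overlapped. Mal-A6 gave -0.26, -0.13, 0.14 and 0.20 with ap56f in channel 1, and -0.28, -0.14, 0 and 0.07 with OregonR in channel 1. Mal-A7 gave -0.16, -0.09, 0.14 and 0.59 against -0.22, 0.04, 0.05 and 0.07. Mal-A3 gave -0.14, -0.07, -0.07 and 0.24 against 0, 0.12, 0.20 and 0.26.

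Mal-A4 stood on the other side from tobi, Mal-A1 and Mal-A2, at -0.27 (SE 0.065). With ap56f in channel 1 it gave -0.45, -0.38, -0.02 and 0.26, and with OregonR in channel 1 it gave 0.14, 0.20, 0.43 and 0.49. The highest array of the first orientation (0.26) overlapped the second. On the 8 direct arrays alone its value was -0.23 (SE 0.082), and it did not pass the threshold there (limma). The direct arrays of Mal-A8 gave 0.19 (SE 0.083) and did not pass either.

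Of the 8 genes, 4 passed the threshold on the plus side in ap56f against OregonR and 1 on the minus side. Of all elements 15.7% did, 6.94% plus and 8.76% minus. The groups of the 2 orientations were separate on the plus side for 3 genes (tobi, Mal-A1 and Mal-A2), as for 4.95% of all elements, and on the minus side for 0 of the 8, as for 6.57%. The median of the 8 was 0.16, against -0.02 over all elements. Nothing is read from these counts or this median either, because of how the genes were chosen. After quantile normalization the plus share of all calls in this comparison moved from 44.2% to 53.0%, and with a trimmed mean as centre to 53.6%, while each of the 8 genes kept its side.

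Between the mutant strains all 8 genes stood on the plus side. The differences of Antp73b against ap56f were 0.31 (SE 0.067) for Mal-A2, 0.30 (SE 0.049) for Mal-A3, 0.51 (SE 0.065) for Mal-A4, 0.55 (SE 0.054) for Mal-A6, 0.24 (SE 0.070) for Mal-A7 and 0.47 (SE 0.052) for Mal-A8. Mal-A4, which overlapped in both comparisons with OregonR, was separate here, with 0.38, 0.67, 0.71 and 0.81 against -0.63, -0.47, -0.41 and -0.32. Its difference was 0.68 (SE 0.080) on even-numbered arrays and 0.35 (SE 0.091) on odd-numbered ones.

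Mal-A3 was also separate, with 0.20, 0.26, 0.38 and 0.47 against -0.43, -0.26, -0.20 and -0.13. Mal-A6 gave 0, 0.47, 0.58 and 0.72 against -0.63, -0.58, -0.58 and -0.49. Mal-A8 gave 0.54, 0.63, 0.77 and 0.81 against -0.57, -0.20, -0.20 and 0. Both were separate, and in each gene the array nearest to the opposite group stood at 0 in one orientation.

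Mal-A2 and Mal-A7 overlapped between the orientations. Mal-A2 gave -0.19, 0, 0.32 and 0.38 against -0.81, -0.54, -0.49 and -0.14, and Mal-A7 gave -0.26, 0.10, 0.53 and 0.63 against -0.43, -0.31, 0 and 0.26. On the second spot alone their differences were 0.19 (SE 0.090) and 0.13 (SE 0.10), and neither passed the threshold. Over all arrays and both spots the 8 genes passed it on the plus side, as 10.2% of all elements did, while 5.19% passed on the minus side and 15.4% on either. The groups of 6 genes were separate on the plus side, as those of 8.4% of elements were, and those of 0 genes on the minus side, as for 4.45%. The median of the 8 was 0.49, against 0.02 over all elements. The plus share of all calls here was 66.3%, and 50.2% after quantile normalization and 50.5% with a trimmed mean as centre. The 3 comparisons share strains and arrays, so their counts are not independent of each other. The choice of the genes limits the counts and the median here as well, and nothing is read from them.

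**Figure D3:**
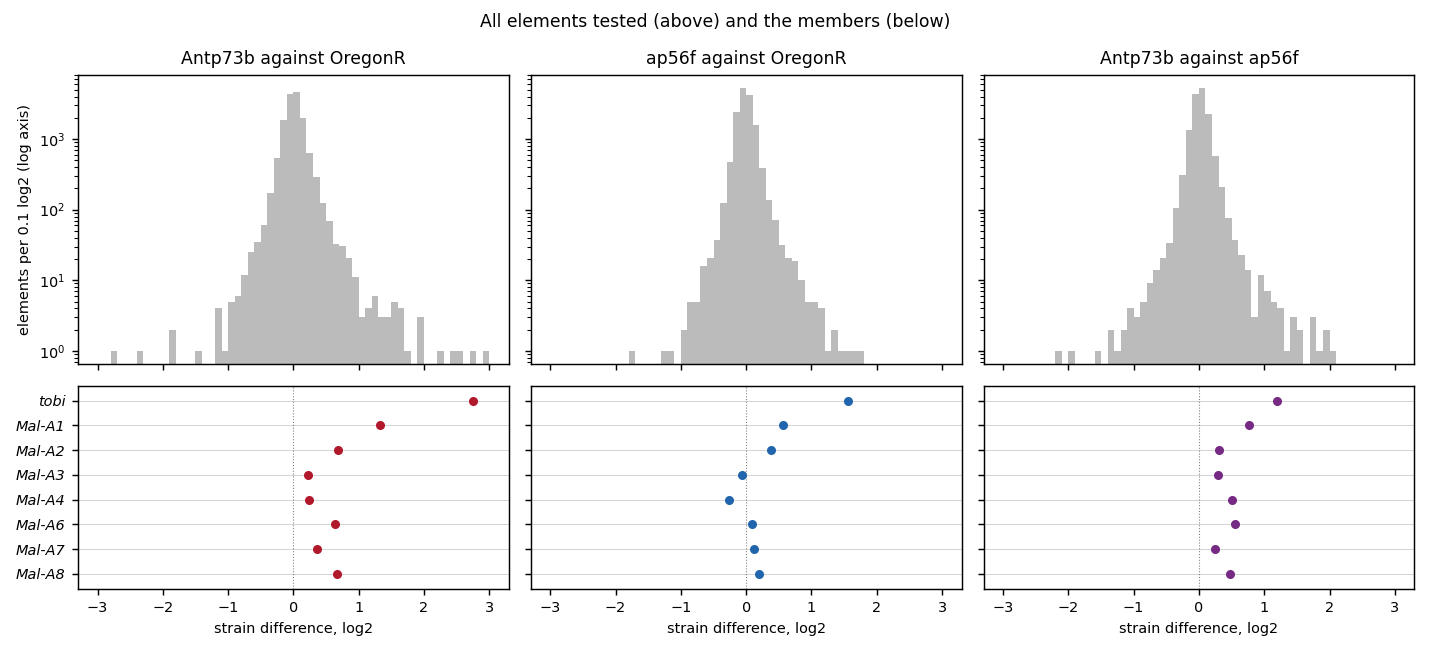
Strain differences (horizontal axis, log2) of all 14866 elements as histograms on a log axis (above) and of the 8 genes as points (below), for the 3 comparisons. tobi lies in the outer tail each time, and Mal-A3 at 0.23, -0.07 and 0.30 lies within the bulk or its edge.

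The place of ap56f between the other strains thus varied among the 8 genes. Its difference from OregonR, as a share of that of Antp73b, was 55% (SE 8.4) for Mal-A2, near the values of tobi and Mal-A1, and 29.2% (SE 6.9) for Mal-A8, 33.6% (SE 17) for Mal-A7 and 12.9% (SE 8.1) for Mal-A6. For Mal-A3 and Mal-A4 ap56f lay beyond OregonR, and the order of the strains was ap56f, OregonR and Antp73b. For Mal-A3, Mal-A6 and Mal-A7 the neighbours OregonR and ap56f did not differ beyond their spread: their groups overlapped and they did not pass the threshold. For Mal-A4 and Mal-A8 the groups of this pair overlapped too, although the fit over all arrays passed. The same held for Antp73b and ap56f in Mal-A2 and Mal-A7, and for OregonR and Antp73b in Mal-A4. Neither neighbouring pair in the order of Mal-A4 was thus separate by its groups.

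The measurements that had no part in the choice of the genes were tested. The difference of Antp73b and ap56f can be read directly or by way of OregonR. Where log2 ratios add, the disagreement of both routes does not depend on the size of the strain differences. For tobi the direct value was 1.16 (SE 0.082) and the value by way of OregonR 1.26 (SE 0.12), a disagreement of -0.10 (SE 0.14). Over the 8 genes the disagreement ran from -0.16 (SE 0.15) for Mal-A7 to 0.11 (SE 0.14) for Mal-A4. It passed an adjusted p of 0.05 for 0 of the 8 genes and for 0% of all elements (limma, lowest adjusted p of the 8 = 0.999), and it had an unadjusted p under 0.05 for 0 of the 8 genes and 3.65% of elements.

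**Figure D4:**
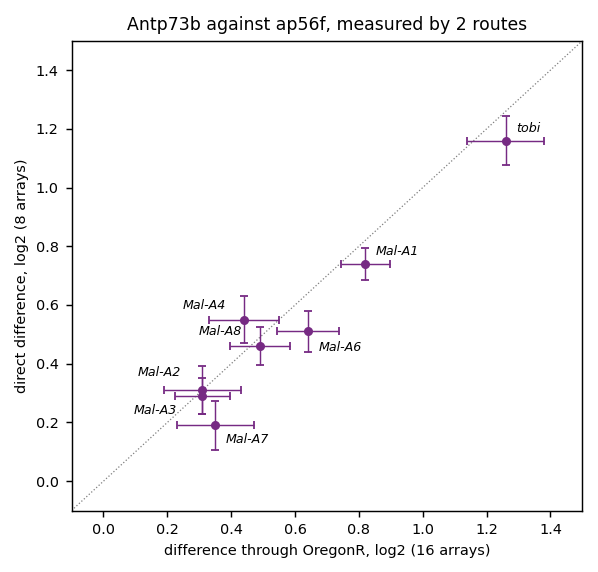
Difference of Antp73b and ap56f (log2) measured on the 8 arrays that hybridised both strains (vertical axis) and by way of OregonR (horizontal axis), with bars of 1 SE and the line of equal values. All 8 genes lie near the line, with Mal-A7 0.16 below it and Mal-A4 0.11 above it.

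A model of additive strain and dye terms was tested against the means of all 9 groups. It was not rejected for any of the 8 genes or any element at an adjusted p of 0.05 (0 of 8 and 0% of elements, limma, lowest adjusted p of the 8 = 0.925), and 0 of 8 genes and 5.5% of elements had an unadjusted p under 0.05. Strain differences that change with the place of an array in its group (the first 2 or the last 2 by array number) were found for 0 of 8 genes and 0% of elements (limma, lowest adjusted p of the 8 = 0.892), with an unadjusted p under 0.05 for 0 of 8 and 5.7%. For even and odd array numbers the count was 0 of 8 genes and 0.0203% of elements (limma, lowest adjusted p of the 8 = 0.854). An unadjusted p under 0.05 was found there for 1 of the 8 genes, Mal-A4, and for 5.69% of elements. The self-hybridised groups held 4 arrays each, and for tobi their means were 0.01 ± 0.36 (SD, n = 4) for OregonR, -0.03 ± 0.38 (SD, n = 4) for Antp73b and 0.22 ± 0.21 (SD, n = 4) for ap56f.

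The dye offset, a shift of the ratio that is the same for all strains, differed between the genes. It was 0.23 (SE 0.027, limma adjusted p = 5e-10) for Mal-A1 and 0.20 (SE 0.030, limma adjusted p = 1.5e-07) for Mal-A8. It was 0.09 for tobi (SE 0.038, limma adjusted p = 0.0385) and for Mal-A7 (SE 0.040, limma adjusted p = 0.0444), and 0.07 for Mal-A3 (SE 0.028, limma adjusted p = 0.0284). Mal-A6 (-0.07, SE 0.031), Mal-A2 (-0.06, SE 0.039) and Mal-A4 (0.01, SE 0.037) did not pass the threshold. With 5 of 8 genes the share was close to the 61.2% of all elements that passed. Without array 45, 54, 63 or 72 the number was 3 of 8.

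Each element was printed as 2 spots, and these gave a check within an array. The differences of tobi from the first and the second spot were 2.71 and 2.79 in Antp73b against OregonR, 1.54 and 1.56 in ap56f against OregonR, and 1.17 and 1.22 in Antp73b against ap56f. Those of Mal-A1 differed by 0.02 at most, and across arrays its spots correlated with r = 0.95 (36 arrays). For tobi r was 0.98 over the 35 arrays with a value at both spots. For the other maltases r was 0.80 for Mal-A8, 0.77 for Mal-A4, 0.70 for Mal-A6, 0.63 for Mal-A2, 0.36 for Mal-A3 and 0.24 for Mal-A7. The largest gap between spots was 0.23, for Mal-A2 in Antp73b against ap56f (0.43 and 0.19). These correlations share the strain pairs of the arrays, which widen the range of tobi and Mal-A1.

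**Figure D5:**
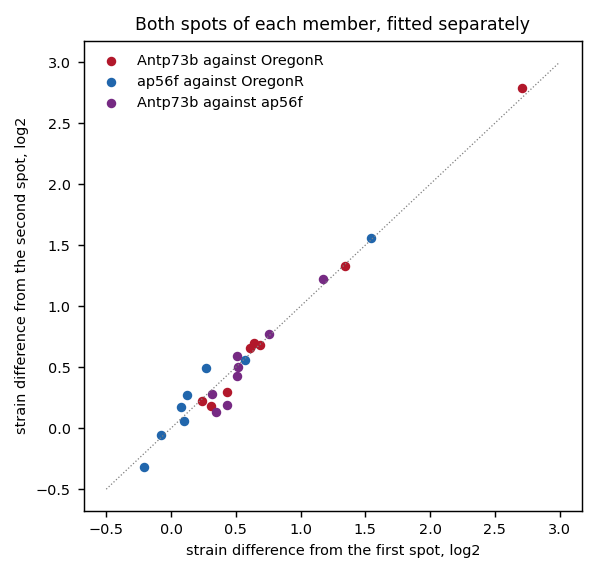
Strain difference (log2) fitted from the first spot (horizontal axis) and from the second spot (vertical axis) of the 8 genes in 3 comparisons, coloured by comparison, with the line of equal values. The differences of tobi (2.71 and 2.79 at the top right) lie close to the line, and those of Mal-A2 and Mal-A7 lie farthest from it.

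The sequences of the elements were not used here. The maltase A genes are copies of each other, so their elements may share signal, and the probe table lists 1 sequence record in common for 2 elements, those of Mal-A2 and Mal-A3. Their differences were 0.69 and 0.23 in Antp73b against OregonR and 0.38 and -0.07 in ap56f against OregonR. For the Mal-A1 element the probe table lists no sequence record, so a shared record could not be looked for.

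Neighbours in the gene order of the reference annotation were read beside both loci. Of the 3 nearest measured genes on either side of tobi, alrm was called in ap56f against OregonR (0.19, SE 0.061), and Vps33B was called in Antp73b against OregonR (-0.15, SE 0.053) and in Antp73b against ap56f (-0.21, SE 0.053). rha, CG11902, CG10669 and CG4553 were called in none of the 3 comparisons, with values between -0.08 and 0.16. Beside the Mal-A cluster, CG12780 gave 0.66 (SE 0.10), 0.31 (SE 0.096) and 0.35 (SE 0.098) in Antp73b against OregonR, ap56f against OregonR and Antp73b against ap56f, and it was called in all of them. The cytochrome P450 genes Cyp4e1 (0.24 and 0.28), Cyp4e2 (0.38 and 0.37) and Cyp6a14 (0.18 and 0.23) were called in Antp73b and ap56f against OregonR, respectively, and not between the mutant strains. Cyp4ad1 and both elements of mtt were not called.

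Other genes of starch and sugar breakdown and sugar transport differed less than tobi. The list held 20 tested genes with 24 elements, of which 6 were called plus and 3 minus in Antp73b against OregonR, with a median of 0.05. Of all elements 11.9% were called plus and 10.1% minus there, with a median of 0.01, so the minus calls of the list were near the share of all elements. Amyrel, a relative of the amylases, stood at 0.93 (SE 0.067) in Antp73b against OregonR and 1.06 (SE 0.067) in Antp73b against ap56f. In ap56f against OregonR it stood at -0.13 (SE 0.067) and was not called. Amyrel thus exceeded every maltase A gene but Mal-A1 in Antp73b against OregonR. In Antp73b against ap56f it exceeded all 7 of them (Mal-A1 0.77, SE 0.046). Treh, the enzyme that splits the blood sugar trehalose, had 3 elements at 0.27, 0.32 and 0.40 in Antp73b against OregonR and at 0.34, 0.35 and 0.60 in Antp73b against ap56f, all called. The second maltase cluster of the fly split: Mal-B2 stood at 0.35 (SE 0.047) in Antp73b against OregonR and Mal-B1 at -0.26 (SE 0.047), and both were called. Antp73b against ap56f had 8 plus calls and 1 minus call in this list (median 0.07), against 10.2% and 5.19% of all elements, and that 1 was Mal-B1 (-0.41, SE 0.047). For ap56f against OregonR the calls were 2 plus and 4 minus (median -0.05), against 6.94% and 8.76% of all elements, with Tps1, which makes trehalose, at -0.44 (SE 0.038) and the trehalose transporter Tret1-1 at -0.22 (SE 0.054) on one element and -0.07 (SE 0.057, not called) on the other.

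The hormone signals that act on tobi had few calls in Antp73b against OregonR. Of 16 tested genes with 23 elements, 1 element was called in Antp73b against OregonR, that of the insulin receptor substrate chico (0.16, SE 0.047), where 22% of all elements were called. ap56f against OregonR had 3 plus calls and 1 minus call, close to the 15.7% of all elements called there, and both elements of Mondo, a sugar-sensing transcription factor, were among the plus calls (0.40, SE 0.076, and 0.23, SE 0.074). In Antp73b against ap56f both elements of Mondo were called on the minus side (-0.40, SE 0.073, and -0.32, SE 0.074), and 0 were called plus, where 5.19% and 10.2% of all elements were called on these sides. Ilp2, an insulin-like peptide, stood at -0.04 (SE 0.059) in Antp73b against OregonR, the glucagon-like hormone Akh at -0.08 (SE 0.061), its receptor AkhR at 0.05 (SE 0.065) and the transcription factor foxo at -0.10 (SE 0.056), none of them called.

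The ratios hold no level of a transcript, so tissues could be followed only by differences of their marker genes. The calls of these lists stand beside those of all elements, of which 11.9% were plus and 10.1% minus in Antp73b against OregonR (median 0.01), 6.94% and 8.76% in ap56f against OregonR (median -0.02), and 10.2% and 5.19% in Antp73b against ap56f (median 0.02). Midgut digestion genes, chiefly those of proteases and lysozymes, lay mostly on the other side from tobi in Antp73b against OregonR. Of 26 elements 15 were called minus and 3 plus. Their values ran from -2.77 (LysE, SE 0.061) to 0.56 (median -0.37), with LysS at -2.39 (SE 0.070). LysE and LysS are gut lysozymes. They were also the lowest in Antp73b against ap56f, at -2.18 (SE 0.061) and -1.92 (SE 0.070), where the list had 5 plus and 18 minus calls (highest 0.53, median -0.34). Between ap56f and OregonR the calls were 7 plus and 7 minus (median 0.04), from LysE at -0.59 (SE 0.061) to the protease Jon99Ci at 0.65 (SE 0.055). Fat body genes had 7 of 7 elements called plus in Antp73b against OregonR (range 0.21 to 1.45, median 0.37), 4 plus and 0 minus in ap56f against OregonR (range 0.05 to 0.55) and 5 plus and 2 minus in Antp73b against ap56f (range -0.34 to 0.97). Among them fit stood at 1.45, 0.49 and 0.97 (SE 0.064) in these comparisons, Adh, alcohol dehydrogenase, at 0.80 and 0.53 (SE 0.048) in those with Antp73b on one element and 0.37 and 0.24 (SE 0.084) on the other, and Fbp1, a storage protein receptor, at 0.55 (SE 0.051) in ap56f against OregonR. The 2 minus calls in Antp73b against ap56f were Fbp1 (-0.34, SE 0.051) and Fbp2 (-0.20, SE 0.053). Both were called plus in each comparison with OregonR. Of the 10 genes in the fat body list 6 were tested. Egg shell and yolk genes of females had 0 plus and 11 minus calls of 14 in Antp73b against OregonR (range -1.16 to 0.10), 0 plus and 14 minus in ap56f against OregonR (range -0.81 to -0.18), and 2 plus and 7 minus in Antp73b against ap56f (range -0.46 to 0.28). The chorion gene Cp38 stood at -1.16, -0.81 and -0.35 (SE 0.042) and the vitelline membrane gene Vm32E at -1.11, -0.65 and -0.46 (SE 0.061). The yolk protein genes differed from these. In Antp73b against OregonR the elements not called were Yp1 (0.07, SE 0.045) and both of Yp3 (0.10, SE 0.061, and -0.07, SE 0.062). Yp2 was called minus there (-0.28, SE 0.051). The 2 plus calls in Antp73b against ap56f were Yp1 (0.26, SE 0.045) and 1 element of Yp3 (0.28, SE 0.061). The part of these tissues in the differences of tobi and the maltases was not tested.

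Outside the 8 genes, 10410 elements had 1 gene and a value on all 36 arrays. Those of them whose ratios followed tobi most closely were Mtk (r = 0.973), smp-30 (0.964), Hpd (0.958), Ag5r (0.955) and CG10550 (0.948), by Pearson correlation of the log2 ratios. Mtk, which encodes the antimicrobial peptide metchnikowin, had differences of 2.41 in Antp73b against OregonR and 1.36 in ap56f against OregonR. Those of Hpd, an enzyme of tyrosine breakdown, were 0.86 and 0.59. Among the same elements, Mal-A1 was followed most closely by lectin-37Da (0.971), Mtk (0.959), CG10383 (0.954), vir-1 (0.953) and fit (0.952). Within the 8 genes, tobi and Mal-A1 correlated with r = 0.96, tobi and Mal-A8 with 0.87, and tobi and Mal-A4 with 0.31. All arrays stem from the same 3 strains, so any gene with a large difference in the same order of strains has a high r.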

How the data were processed

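Log2 ratios were read from 1 table of 36 arrays. Each deposited value is a signed fold ratio that the authors made from both channels, treated as a score whose scale was read from the values: of 1059750 values 0 lay between -1 and 1, and they ran from -11.2 to 9.9. Arrays were scanned on a GenePix scanner, per the labels' protocols; the label text at hand ends after that step, so the signal processing behind the ratios is unknown here.

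Log2 ratios took the log2 of each value's size with the value's sign and were centred on each array's median. The spots of an element were averaged, paired by the repeat of the probe table's entries within 24 blocks. Elements needed a value on 2 or more arrays in each group of 4. Symbols were read from the probe table of the platform and updated by gene ID for 12107 of 12587 elements with 1 gene through a RefSeq table (assembly Release 6), which was also used for gene order.

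limma 3.58.1 in R 4.3.3 was fitted to all arrays with an intercept for the dyes and strain terms, 1 for a strain in channel 1 and -1 in channel 2. P-values were two-sided for strain differences and dye offsets, and adjusted by Benjamini-Hochberg over all elements tested, and an element under 0.05 is called. The 2-route test and the additive-model test used 9 group means, and place and parity were tested as interactions with strain. Place was tested because it had been seen as a batch in an earlier look at these data. Steps were tested on simulated data.

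All 8 genes are named whatever their values. From each gene list the 2 called elements with the largest differences in each comparison are named, besides the 5 genes most like tobi and Mal-A1. Mal-B1, Mal-B2, Ilp2, Akh, AkhR, foxo, Fbp2, Yp1, Yp2 and Yp3 were added after their values were seen. The genes, lists and tests were chosen with earlier results of these data known. Neighbours were the 3 nearest measured genes. A planned search of promoter motifs was not run, and promoter sequences were not used here. Alternatives were other centrings and normalizations, single spots, other filters, no dye term, subsets of arrays, place and parity as blocks, limma's trend and robust options, and leaving out each array. The table held 0 columns of other samples.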

Additional observations from a re-analysis of the deposited data

Results flagged for a closer look

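In 3 of 72 sets of 4 arrays (9 groups for each of 8 genes), 1 array stood farther from the others than Dixon's criterion for the gap over the range of 4 values allows. Chance alone gives about 5% of such sets. For tobi, array 56 of OregonR in channel 1 and ap56f in channel 2 stood at -1.86 and the nearest other array at -1.32. Without it the difference in ap56f against OregonR was 1.51 (SE 0.066) in place of 1.55. For Mal-A4, array 53 of OregonR and Antp73b stood at -0.37 and the others at -0.21 to -0.20, and without it the difference in Antp73b against OregonR was 0.23 (SE 0.068) in place of 0.25. For Mal-A7, array 55 of OregonR and ap56f stood at -0.22 and the others between 0.04 and 0.07. Without it the difference in ap56f against OregonR was 0.10 (SE 0.074) in place of 0.12. The spots behind these Mal-A7 means lay far apart, at -0.585 and 0.14 on array 55 and at 0.77 and -0.68 on array 57. Centring on the median lowered arrays 50 and 56, which enter the sets of Mal-A4 and tobi, and the criterion was not applied to uncentred values.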

How the results depend on the processing

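The 24 strain differences of the 8 genes were refitted under 18 other settings and without each of 36 arrays, and 0 changed sign. Of the 21 that passed the threshold, 0 failed it when 1 array was left out, and 7 failed it under at least 1 of the 18 settings: those of Mal-A3, Mal-A4 and Mal-A7 in Antp73b against OregonR, Mal-A4 and Mal-A8 in ap56f against OregonR, and Mal-A2 and Mal-A7 in Antp73b against ap56f. In ap56f against OregonR 3 genes passed, in place of 5, with the first spot, the 8 direct arrays, the first 2 arrays of each group or odd array numbers. In Antp73b against OregonR 5 passed, in place of 8, on the last 2 arrays of each group. The subsets hold fewer arrays or spots; beyond that the cause was not tested. Quantile normalization lowered the differences of tobi to 2.24, 1.31 and 0.93 and that of Mal-A1 in Antp73b against OregonR to 1.16. Leaving out 1 array, the number of genes with a dye offset ran from 3 to 6, and the counts for the 2-route, additive-model, place and parity tests were 0 under each of the 7 settings run for them and without each array. Blocks for place, for parity and for both left 8, 5 and 8 genes past the threshold in the 3 comparisons, as without them. A block for place raised the calls among all elements from 3277, 2335 and 2288 to 3578, 2583 and 2546. Over all elements the calls fell from 3277 to as few as 1589 (last 2 arrays of each group) in Antp73b against OregonR, from 2335 to 715 (direct arrays) in ap56f against OregonR and from 2288 to 933 (last 2 arrays) in Antp73b against ap56f. No paired analysis was possible because the labels at hand name no pairs of arrays and no RNA extracts. Steps of 0.14 on the log2 scale next to a fold of 1 limit the smaller differences.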
